A study of Brassica napus with 12 samples.

Results

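The stretch of chromosome C02 from BnaC02g42370D to BnaC02g44060D and a stretch of chromosome A02 from BnaA02g33970D to BnaA02g34500D were described in roots and mature leaves of Brassica napus (oilseed rape). They hold 94 of the 2168 C02 genes and 39 of the 2020 A02 genes, so 133 of the 52962 gene identifiers in the count tables. Every identifier between the ends was taken by its number, whatever its level. Both stretches were picked from the values of these libraries: C02 because its counts were low in the libraries of no-Si replicate 2, and A02 as the counterpart of that segment in the other subgenome. The values of no-Si replicate 2 are therefore given as a description, with no test.

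The study gave silicon to hydroponic plants and compared roots and leaves with those of plants without it. There were 3 root and 3 mature leaf libraries of plants supplied for 1 week with 1.7 mM Si (Si, as sodium metasilicate), and 3 root and 3 mature leaf libraries of plants supplied with 3.4 mM NaCl in its place (no Si). All plants were of the variety Citizzen and labelled wild type, and the supply began when leaf number 4 emerged. The labels call the libraries replicates without saying how many plants each held, or whether equal numbers in root and leaf mark the same plants. The labels give a planting date 44 days before harvest for the no-Si libraries and leaf Si replicate 3 and 7 days before harvest for the other 5 Si libraries. The shorter time is less than the growth that the protocol describes, and what that date marks is not given. In roots, the labelled date and Si supply cannot be told apart. Gene totals ran from 15616881 to 19330076 counts in roots and from 14429867 to 21792206 counts in leaves, with the lowest leaf total in no-Si replicate 2, of whose reads 15.6% were unmapped against 5.36% to 6.23% in the other leaves. Levels are sense-strand counts scaled by each library's gene total (CPM). They are not corrected for gene length, so they are compared between libraries and not between genes.

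Brassica napus is an allotetraploid: its nucleus holds an A subgenome, from a relative of turnip, and a C subgenome, from a relative of cabbage. Most genes therefore exist as an A copy and a C copy, called homeologs, often in the same order on matching chromosomes such as A02 and C02. In this species, segments of an A chromosome are known to replace the matching segment of its C partner, or the reverse, by exchange between homeologous chromosomes, and segments can also be lost. Individual plants of 1 variety can differ in such segments. The tables give each gene an identifier but no name, function or homeolog, so the members are described by their identifiers and the organ labels were not checked against marker genes. Only 7 of the 133 equalled a symbol in RefSeq's gene list for the Da-Ae assembly, where all 7 are listed as protein-coding with no further name. Of these 7, BnaA02g34430D and BnaA02g34470D are listed there on A02, and BnaC02g43460D, BnaC02g43960D and BnaC02g43970D on C02. The other two, BnaC02g42710D and BnaC02g42940D, carry a C02 identifier but are listed on A02.

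In the C02 segment, 51 of the 94 genes had a mean of at least 1 CPM in both organs and are called expressed. A further 16 reached that level in roots only and 4 in leaves only, and 7 had a count of 0 in all 12 libraries. In the A02 stretch, 25 of the 39 genes were expressed in both organs, 7 in roots only and 4 in leaves only, and 1 had no count. Of all identifiers, 35457 genes were expressed in both organs.

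No-Si replicate 2 had little RNA from the C02 segment, in roots and leaves alike. Over the 51 expressed members, the median log2 ratio of its level to the median of the other 5 libraries of the organ was -3.96 in roots (quartiles -5.53 and -2.50) and -3.96 in leaves (quartiles -5.43 and -2.68). These medians correspond to 0.0645 and 0.0644 of the level in the other libraries. The level was more than 8-fold lower for 34 of the 51 members in roots, against 0.262% of all expressed genes. In leaves it was more than 8-fold lower for 36 of the 51, against 0.299% of all expressed genes. For 30 of the 51 this held in both organs, against 0.209% of all expressed genes. Since the segment was chosen for this pattern, these shares are set side by side and nothing is read from them. In bulk tissue, fewer cells with a transcript and less RNA per cell cannot be told apart. The plot of ratios along the chromosomes shows the C02 genes as a block of low points, with most flanking genes near 0 and a second, shorter group of low genes further along C02.

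**Figure D1:**
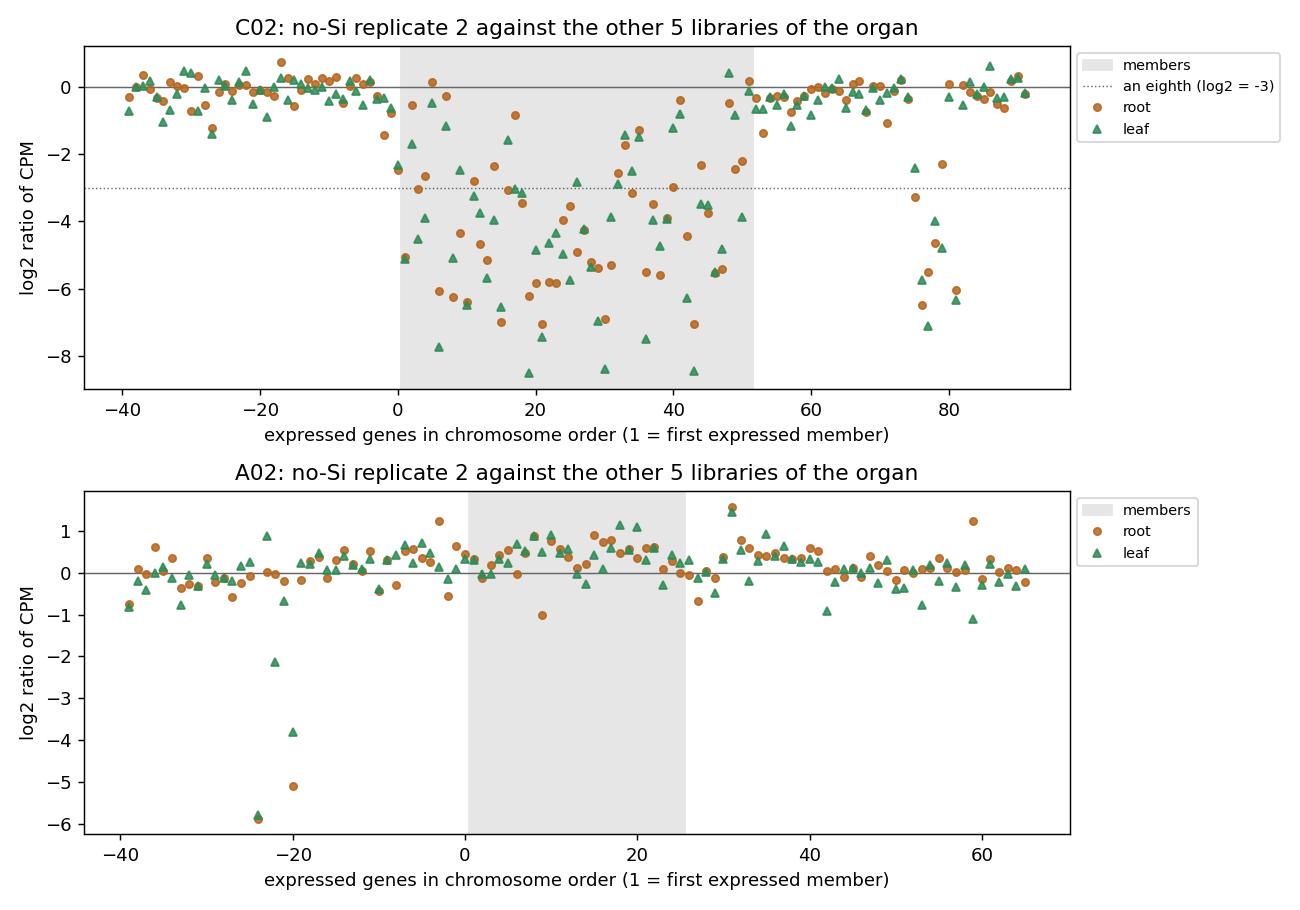
Log2 ratio of the level in no-Si replicate 2 to the median of the other 5 libraries of the same organ, for expressed genes in chromosome order, with 40 genes on each side of the members (grey band). In the C02 panel most members lie far below 0 in roots (circles) and leaves (triangles), while in the A02 panel most members lie a little above 0.

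The members with the highest levels show what the ratio means in reads. BnaC02g42890D, a gene expressed in leaves only, had 0.347 CPM in no-Si replicate 2, against 179, 433 and 294 CPM in the Si leaves and 329 and 305 CPM in the other no-Si leaves. That was 5 reads, and the level was 905-fold lower (counting interval 388 to 2786) than the pooled level of the other leaves. In roots the same gene was under 1 CPM in each library, and no-Si replicate 2, with 12 reads, was not the lowest. BnaC02g42580D had 0.633 CPM in no-Si replicate 2, against 34.8, 79.6 and 55.9 CPM in the Si roots and 58.0 and 65.7 CPM in the other no-Si roots. It was 92.1-fold lower (counting interval 50.1 to 192) in roots and 124-fold lower (counting interval 34.4 to 1028) in leaves. No-Si replicate 2 thus lay far under the range of the other 5 libraries for both genes in the organs that express them.

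BnaC02g42720D had 0.208 CPM in no-Si replicate 2, against 24.5, 42.7 and 45.1 CPM in the Si leaves and 21.9 and 23.7 CPM in the other no-Si leaves. With 3 reads in leaves and 1 in roots, the level was 153-fold lower (counting interval 52.4 to 744) and 295-fold lower (counting interval 52.9 to 11663). Other members were low by less. BnaC02g43350D had 54.2 CPM in no-Si replicate 2, against 117, 215 and 137 CPM in the Si leaves and 146 and 166 CPM in the other no-Si leaves. It was 2.91-fold lower (counting interval 2.71 to 3.13) in leaves and 3.72-fold lower (counting interval 2.98 to 4.70) in roots. BnaC02g43280D was 5.80-fold lower (counting interval 4.95 to 6.84) in roots and 8.61-fold lower (counting interval 6.65 to 11.3) in leaves. For these members too, no-Si replicate 2 was below each of the other 5 libraries in both organs.

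Among the remaining genes of high level, BnaC02g42900D had 0.569 CPM in no-Si replicate 2 and 22.6 to 42.5 CPM in the other 5 in roots. BnaC02g42920D, expressed in roots only, had 3.48 CPM in no-Si replicate 2 and 52.4 to 101 CPM in the other 5. BnaC02g43300D, expressed in leaves only, had 0.277 CPM in no-Si replicate 2 and 12.8 to 81.3 CPM in the other 5. The last of these was 177-fold lower (counting interval 69.2 to 651) in no-Si replicate 2. BnaC02g43700D differed more in roots, where it was 7.81-fold lower (counting interval 6.13 to 10.1), than in leaves, where it was 2.31-fold lower (counting interval 1.81 to 2.98); the intervals do not overlap, but they cover counting error only. Intervals here are exact at 95%, and reads are not independent molecules.

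No-Si replicate 2 had no read at all for 10 of the 51 expressed members in roots and for 17 in leaves, and for 8 of them in both. None of the 51 had a count of 0 in any of the other 10 libraries. The mean level required of an expressed gene left little room for a 0 there. No count of such zeros over all expressed genes is given, so nothing is read from these numbers. The 8 genes were BnaC02g42540D, BnaC02g42860D, BnaC02g42870D, BnaC02g42910D, BnaC02g43070D, BnaC02g43800D, BnaC02g43900D and BnaC02g43930D. Taking 3 counts as the upper limit that a count of 0 allows in 1 library, BnaC02g42860D was at least 103-fold lower in leaves and BnaC02g43800D at least 39.2-fold lower in roots. For the other 6 genes the leaf level in the other libraries allowed bounds of 5.86-fold to 12.8-fold only. A count of 0 is thus a strong limit for some members and a weak one for others.

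Most members were low in both organs. The ratios of the 51 members in roots and leaves had a Pearson correlation of 0.851 and a Spearman correlation of 0.846. These are given as a description, since the genes share the same pair of libraries and the same segment. For members with few or no reads in no-Si replicate 2, the ratio depends on their level in the other libraries. The correlations may therefore partly reflect those levels. In both organs, 48 of the 51 ratios were below 0. No-Si replicate 2 was the lowest of the 6 libraries in both organs for 47 of the 51, against 8.14% of all expressed genes. The plot of root against leaf ratios shows the C02 members along the diagonal, from near 0 to far below -3, and the A02 members in a cluster around 0.42 on both axes.

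**Figure D2:**
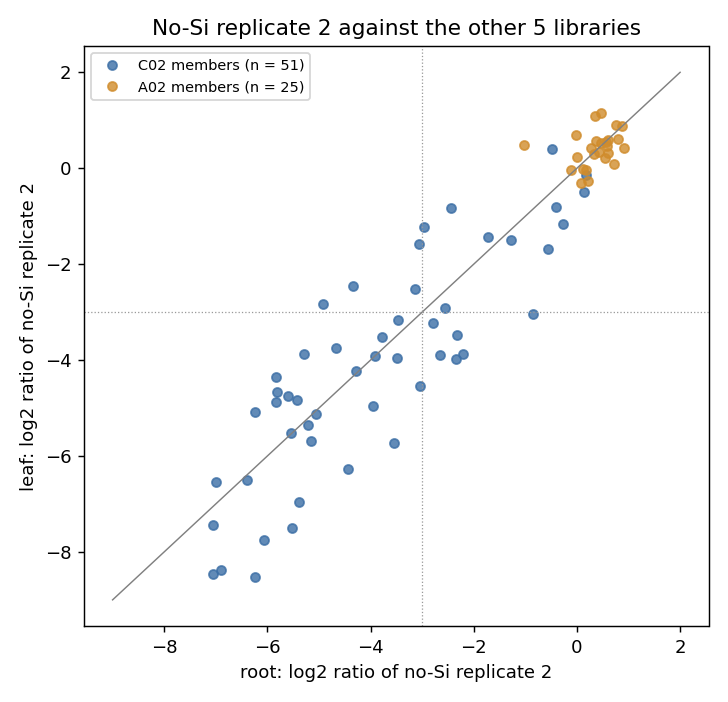
Log2 ratio of no-Si replicate 2 to the median of the other 5 libraries, roots on the x axis and leaves on the y axis, for the 51 expressed C02 members and the 25 expressed A02 members. The line marks equal ratios and the dotted lines mark -3, an 8-fold lower level, past which 30 C02 members and no A02 member lie on both axes.

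Genes expressed in 1 organ gave the same picture. Of the 16 C02 members expressed in roots only, 10 were more than 8-fold lower in no-Si replicate 2 in that organ, against 0.67% of all genes expressed in roots only. Of the 4 expressed in leaves only, 3 were, against 0.92% of all genes expressed in leaves only. BnaC02g43450D was a root gene that did not follow, with 16.4 CPM in no-Si replicate 2, against 11.8, 14.3 and 15.6 CPM in the Si roots and 17.8 and 18.6 CPM in the other no-Si roots. Its value in no-Si replicate 2 lies within the range of the other roots. None of the 7 and 4 A02 members expressed in 1 organ was more than 8-fold lower.

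A few members inside the segment were only a little lower or not lower. In both organs, 4 of the 51 were within 2-fold of the other libraries: BnaC02g42490D, BnaC02g43760D, BnaC02g43940D and BnaC02g44060D. BnaC02g42490D had 24.2 CPM in no-Si replicate 2, against 19.5, 22.1 and 20.7 CPM in the Si roots and 25.4 and 25.6 CPM in the other no-Si roots, so its root level was within their range, with a log2 ratio of 0.13. In leaves it was the lowest of the 6, at 7.97 CPM in no-Si replicate 2 and 9.94 to 16.2 CPM in the other 5. BnaC02g43940D had 6.33 CPM in no-Si replicate 2 and 6.62 to 9.69 CPM in the other 5 in roots and 2.36 CPM in no-Si replicate 2 and 1.22 to 2.65 CPM in the other 5 in leaves. BnaC02g43760D had log2 ratios of -0.40 in roots and -0.81 in leaves, at low mean levels of 1.04 and 1.52 CPM. BnaC02g42530D came next, with log2 ratios of -0.27 in roots and -1.17 in leaves. A further 17 expressed members lay between these 4 and the 30 that were more than 8-fold lower in both organs.

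Neither edge of the segment was sharp. Just outside the first edge, BnaC02g42250D, BnaC02g42340D and BnaC02g42350D had log2 ratios of -1.45, -0.78 and -2.47 in roots and of -0.34, -0.62 and -2.33 in leaves. The nearest of them, BnaC02g42350D, was thus low although it is no member. Its root values were 5.31 CPM in no-Si replicate 2 and 23.0 to 41.2 CPM in the other 5. Just inside, BnaC02g42370D, BnaC02g42400D and BnaC02g42410D had -5.06, -0.55 and -3.03 in roots and -5.12, -1.69 and -4.54 in leaves. BnaC02g42370D had 1 read in roots and 0 in leaves of no-Si replicate 2.

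At the last edge, the members BnaC02g43960D, BnaC02g43980D and BnaC02g44060D had -2.44, -2.20 and 0.17 in roots and -0.83, -3.87 and -0.14 in leaves. BnaC02g44060D, the last member by the rule, had 23.2 CPM in no-Si replicate 2, against 20.1, 20.3 and 20.7 CPM in the Si roots and 22.5 and 22.2 CPM in the other no-Si roots. It therefore showed no lower level, and the last low member among those expressed in both organs was BnaC02g43980D. Between these lies BnaC02g44030D, expressed in roots only. It had a mean of 2.08 CPM in Si roots and 0.867 CPM in no-Si roots, with a lowest root value of 0. Outside, BnaC02g44120D, BnaC02g44160D and BnaC02g44170D had -0.35, -1.37 and -0.34 in roots and -0.68, -0.66 and -0.32 in leaves. The medians of the 10 expressed genes before the segment were -0.12 in roots and -0.35 in leaves, and those of the 10 after it -0.33 and -0.56. Over the other 1303 expressed genes of C02 the medians were -0.06 and -0.15.

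Within the segment, 23 expressed genes in a row, from BnaC02g42820D to BnaC02g43700D, were more than 2-fold lower in no-Si replicate 2 in both organs. Among genes with an assigned chromosome, the longest such run was 1 gene for each of the other 5 replicate numbers of a treatment. Since the segment was chosen for its low values, nothing is read from this contrast. The first 25 expressed members, up to BnaC02g42990D, had medians of -4.34 in roots and -4.54 in leaves, and the last 26 had medians of -3.84 and -3.87. The map of members by library shows these genes as dark columns in no-Si replicate 2, broken by a few pale cells.

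**Figure D3:**
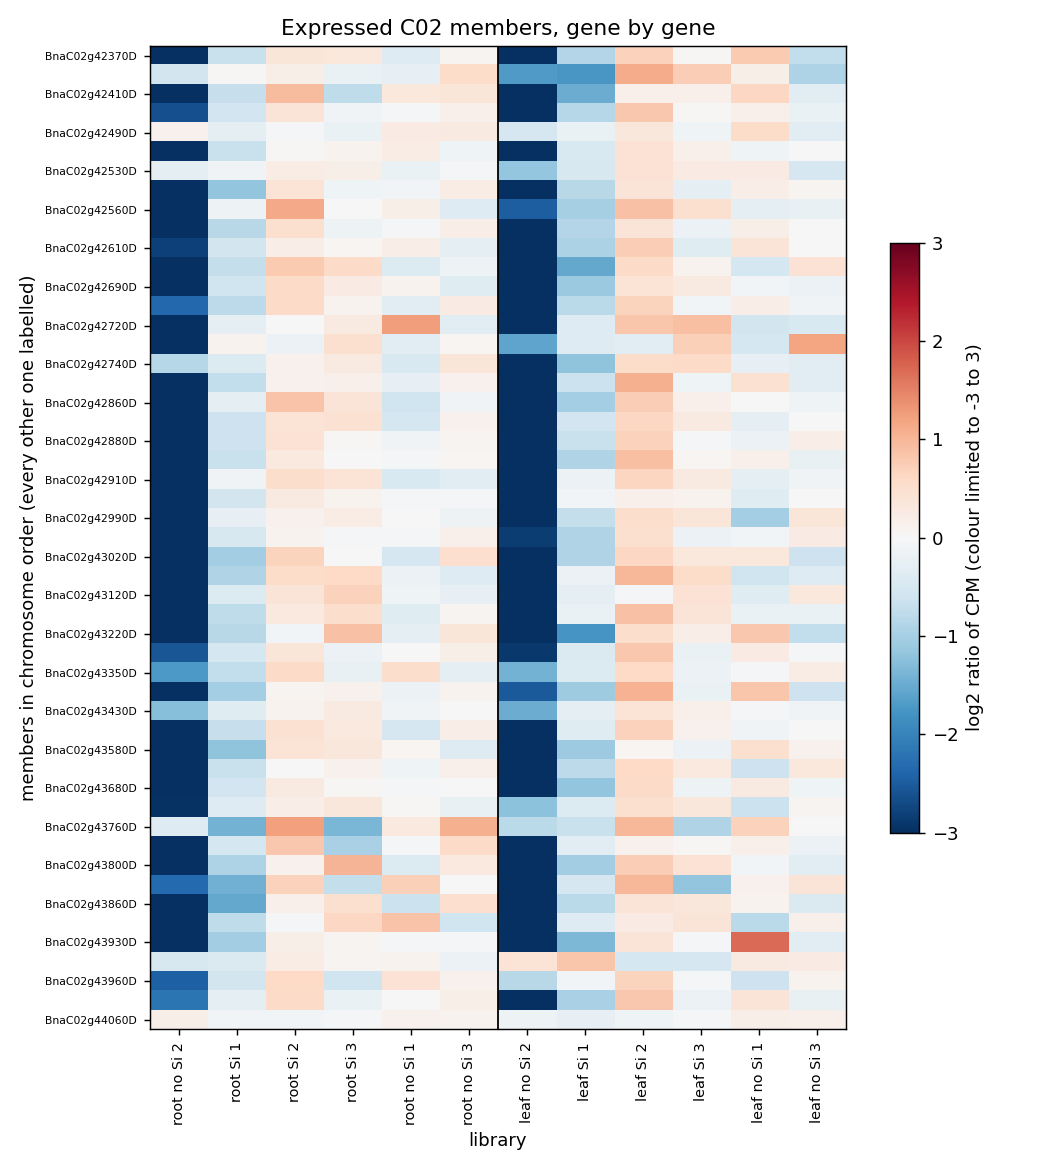
Log2 ratio of each of the 51 expressed C02 members (rows, in chromosome order) in the 12 libraries (columns, roots left of the line and leaves right of it), with colour limited to -3 to 3. No-Si replicate 2 is compared with the other 5 libraries of its organ, and each other library with the other 4 apart from no-Si replicate 2. Both columns of no-Si replicate 2 are dark over most rows, and those of Si replicate 1 are pale blue.

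Reads on the opposite strand were few in the same libraries, where sense reads were few too. The C02 members had 2474 sense reads in roots and 1881 in leaves of no-Si replicate 2. The other roots had at least 10796 and the other leaves at least 10613. The opposite-strand counts are therefore not taken as a separate observation. Over the 94 C02 members, the opposite strand had 9 reads in roots and 6 in leaves of no-Si replicate 2, against 43 to 105 in the other roots and 35 to 194 in the other leaves. Over the 39 A02 members it had 66 and 152 reads, within the ranges of 48 to 105 in the other roots and 84 to 222 in the other leaves.

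Genes of the A02 stretch were, by a smaller margin, higher in no-Si replicate 2. Reads recorded as multimapping, which may include those that match an A and a C copy equally well, were kept out of the gene counts. Multimapping reads were 8.98% of the root library and 7.73% of the leaf library of no-Si replicate 2, against 8.39% to 9.10% in the other roots and 8.94% to 9.66% in the other leaves, and their part in the A02 values was not tested. The median log2 ratio of the 25 expressed A02 members was 0.42 in roots (quartiles 0.18 and 0.59) and 0.42 in leaves (quartiles 0.22 and 0.59), or 1.34 times the other libraries in each organ. In roots 22 of the 25 ratios were above 0, and in leaves 20. No-Si replicate 2 was the highest of the 6 libraries in both organs for 11 of the 25, against 3.25% of all expressed genes. These 11 were BnaA02g34020D, BnaA02g34040D, BnaA02g34080D, BnaA02g34090D, BnaA02g34130D, BnaA02g34190D, BnaA02g34260D, BnaA02g34280D, BnaA02g34310D, BnaA02g34350D and BnaA02g34480D. The ratios of the A02 members in roots and leaves had a Pearson correlation of 0.295 and a Spearman correlation of 0.413 over 25 genes. They spanned only -1.02 to 0.91 in roots and -0.30 to 1.14 in leaves. The C02 ratios spanned -7.06 to 0.17 and -8.52 to 0.40, so the correlations of C02 and A02 are not compared.

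BnaA02g34260D had 119 CPM in no-Si replicate 2, against 73.2, 68.7 and 88.9 CPM in the Si roots and 60.6 and 63.3 CPM in the other no-Si roots. In leaves it had 143 CPM in no-Si replicate 2, against 110.2, 91.0 and 94.5 CPM in the Si leaves and 94.3 and 72.0 CPM in the other no-Si leaves. No-Si replicate 2 was above the range of the other libraries in both organs. BnaA02g34420D, the member of highest mean level, had 1046 CPM in no-Si replicate 2, against 1058, 604 and 729 CPM in the Si leaves and 583 and 693 CPM in the other no-Si leaves. Here Si replicate 1 was as high as no-Si replicate 2, and the other 4 leaves were lower. In roots BnaA02g34420D had 70.9 CPM in no-Si replicate 2 and 43.7 to 58.9 CPM in the other 5.

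BnaA02g34360D had 291 CPM in no-Si replicate 2 and 186 to 274 CPM in the other 5 in roots and 112 CPM in no-Si replicate 2 and 85.1 to 117 CPM in the other 5 in leaves. BnaA02g34020D and BnaA02g34040D had log2 ratios of 0.42 and 0.54 in roots and of 0.34 and 0.22 in leaves. BnaA02g34000D was close to the other libraries, at -0.12 and -0.03. BnaA02g34060D, expressed in roots only, had 145 CPM in no-Si replicate 2, against 266, 268 and 292 CPM in the Si roots and 224 and 146 CPM in the other no-Si roots. Its level in no-Si replicate 2 was nearly that of no-Si replicate 3 and below the other 4 roots, so it did not share the higher level. BnaA02g34380D, expressed in leaves only, had 100.5 CPM in no-Si replicate 2 and 71.6 to 183 CPM in the other 5 and was within their range.

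The higher A02 level did not end at the limits of the chosen stretch. The 10 expressed genes before BnaA02g33970D had medians of 0.39 in roots and 0.32 in leaves, and the 10 before those 0.24 and 0.19. After BnaA02g34500D the next 10 had 0.39 and 0.29, and the 10 after them 0.34 and 0.25, while the 10 genes from BnaA02g35000D to BnaA02g35130D had 0.08 and -0.10. Just inside the stretch, BnaA02g33970D and BnaA02g34000D had 0.33 and -0.12 in roots and 0.30 and -0.03 in leaves, and BnaA02g34480D and BnaA02g34500D had 0.28 and 0.00 in roots and 0.42 and 0.24 in leaves. Just outside, BnaA02g33930D and BnaA02g33940D had 0.63 and 0.44 in roots and 0.09 and 0.32 in leaves, and BnaA02g34510D and BnaA02g34520D had -0.07 and -0.67 in roots and 0.30 and -0.14 in leaves. Over the other 1264 expressed genes of A02 the medians were -0.02 and -0.08.

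In summed level over the chosen genes, the A02 members were higher by less than the C02 members were lower. The sums set 94 C02 genes against 39 A02 genes that were not matched as homeologs. They leave out the A02 genes beyond the chosen stretch that were also higher, so their size depends on the ends taken. The 94 C02 members together had 157 CPM in roots of no-Si replicate 2, against 559, 918 and 806 CPM in the Si roots and 824 and 771 CPM in the other no-Si roots. The 39 A02 members had 1431 CPM in roots of no-Si replicate 2, against 1369.8, 1156 and 1203 CPM in the Si roots and 1136 and 1078 CPM in the other no-Si roots. In leaves the C02 sum was 130.4 CPM in no-Si replicate 2, against 612, 1347 and 947 CPM in the Si leaves and 978 and 919 CPM in the other no-Si leaves. The A02 sum in leaves was 1921 CPM in no-Si replicate 2, against 1818, 1332 and 1443 CPM in the Si leaves and 1381 and 1316 CPM in the other no-Si leaves. No-Si replicate 2 had the lowest C02 sum and the highest A02 sum of the 6 libraries in both organs.

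Added together, the C02 and A02 members had 1588 CPM in roots of no-Si replicate 2, against 1849 to 2075 CPM in the other roots. In leaves they had 2051 CPM in no-Si replicate 2, against 2236 to 2679 CPM in the other leaves. For the genes chosen, the combined level was therefore the lowest of the 6 in each organ. This level and the C02 share depend on the ends taken on A02. The C02 share of the combined level was 9.86% in roots and 6.36% in leaves of no-Si replicate 2. It was 29.0% and 25.2% in Si replicate 1 and 44.3% and 50.3% in Si replicate 2, and it ran from 39.6% to 42.0% in the other 6 libraries.

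**Figure D4:**
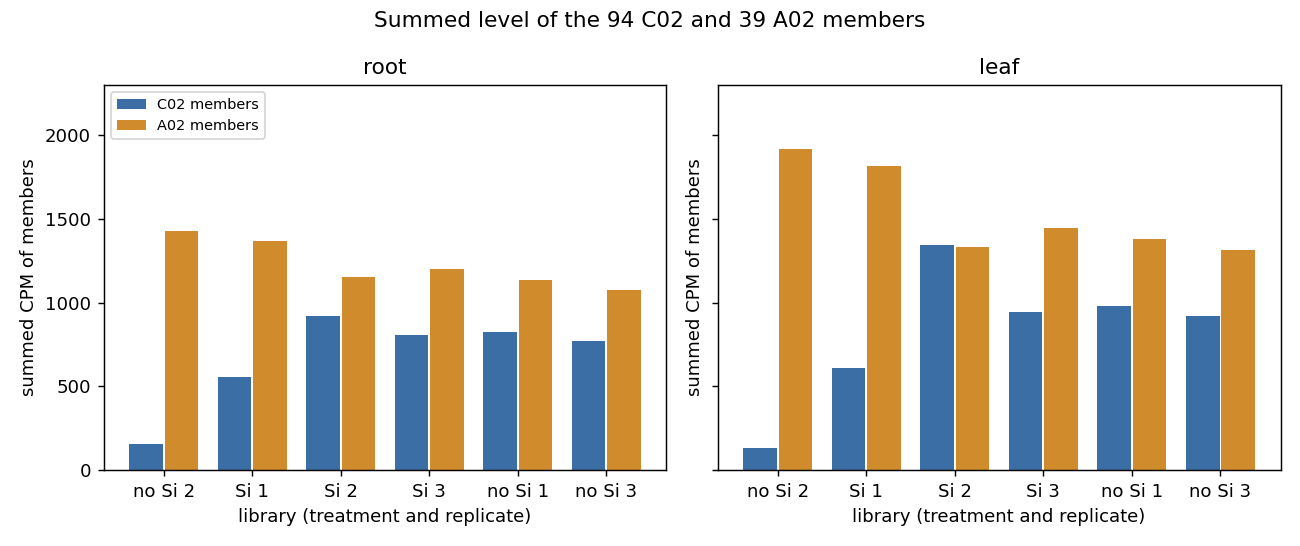
Summed CPM of the 94 C02 members (blue) and the 39 A02 members (orange) in each library, roots left and leaves right, with 1 bar per library and no error bar. No-Si replicate 2 has the shortest C02 bar and the tallest A02 bar in both organs, and Si replicate 1 has the next shortest C02 bar and the next tallest A02 bar.

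Si replicate 1 differed from the other libraries in the same direction, to a lesser degree and in both organs. When the members were chosen, Si replicate 1 was part of the reference against which no-Si replicate 2 was set. Earlier results of these data were also known, and the same genes are averaged. The values are therefore given as a description, and no group of libraries can be compared with a single one by a test. With no-Si replicate 2 left out, the median log2 ratio of the 51 C02 members in Si replicate 1 to the other 4 libraries was -0.62 in roots and -0.72 in leaves, or 0.652 and 0.607 of their level. The ratio was below 0 for 49 of the 51 in roots and 50 of the 51 in leaves. Si replicate 1 was the lowest of these 5 libraries in both organs for 29 of the 51, against 5.47% of all expressed genes. Among the 30 members that were more than 8-fold lower in no-Si replicate 2 in both organs, the medians were -0.68 and -0.80, and all 30 ratios were below 0 in each organ. The 4 members that were within 2-fold there had medians of -0.35 and -0.23.

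The A02 members of Si replicate 1 had a median log2 ratio of 0.24 in roots and 0.18 in leaves. Among them, 10 of the 25 had their highest level of the 5 libraries in both organs, against 2.77% of all expressed genes. Si replicate 2 differed the other way. Its C02 medians were 0.29 in roots and 0.60 in leaves. Among them, 22 of the 51 were the highest of the 5 libraries in both organs, against 6.59% of all expressed genes. Its A02 medians were -0.10 and -0.05, and 3 of the 25 members were the lowest in both organs, against 2.32%. The C02 medians of Si replicate 3 and of no-Si replicates 1 and 3 lay between -0.11 and 0.11 in each organ. Over all expressed genes the median of a library ran from -0.09 to 0.08, so shifts of about that size are not particular to the members.

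**Figure D5:**
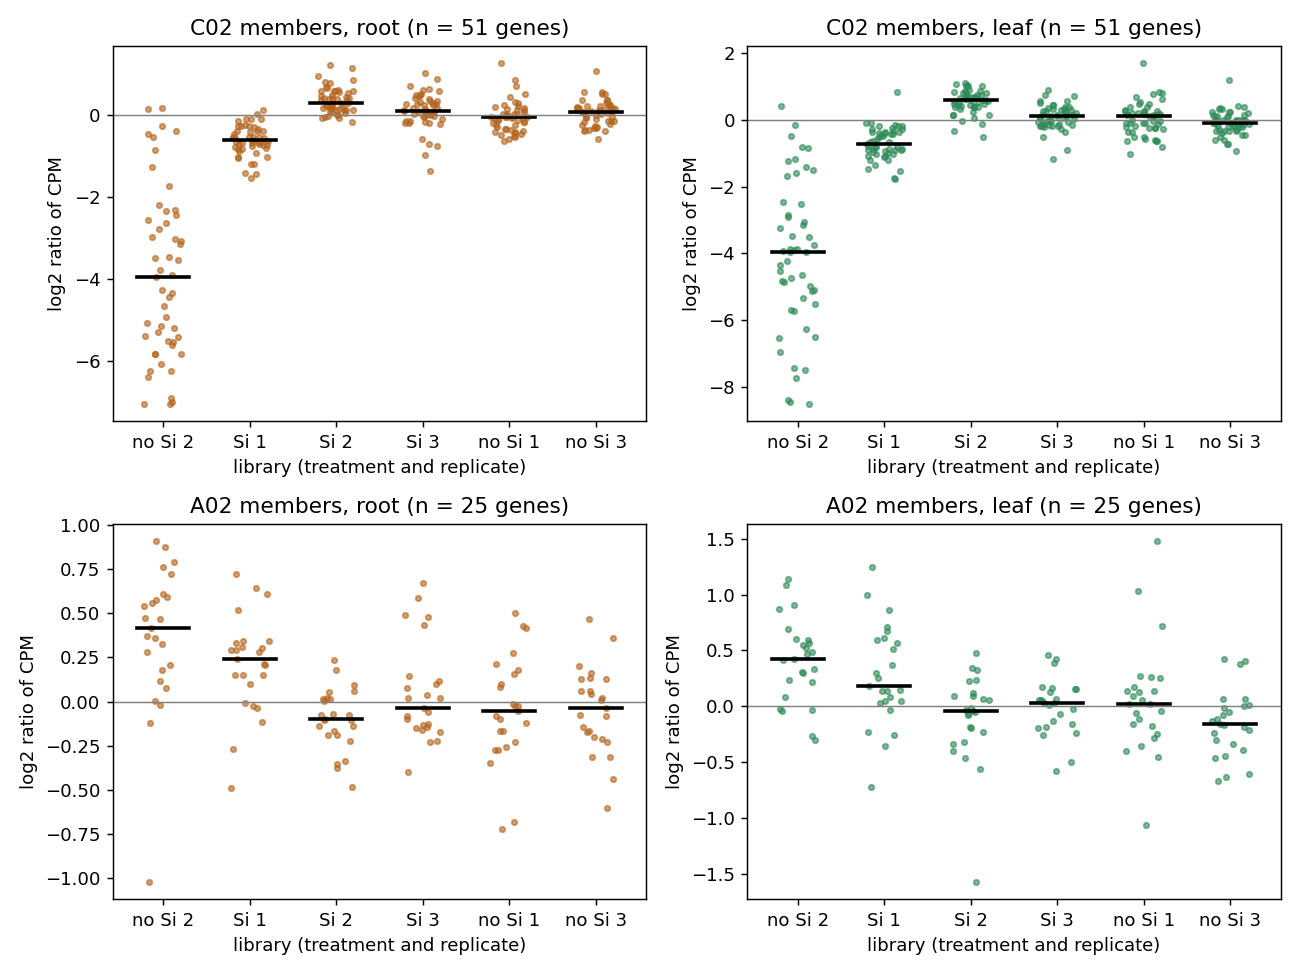
Log2 ratio of each expressed member in each library, C02 above and A02 below, roots left and leaves right, with 1 point per gene and a bar at the median. No-Si replicate 2 is compared with the other 5 libraries and each other library with the other 4 apart from it. The C02 bar of Si replicate 1 lies below 0 and that of Si replicate 2 above 0 in both organs.

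Few genes outside the segment were as low in no-Si replicate 2. Of 35457 expressed genes, 74 were more than 8-fold lower in both organs, and 43 of them were on C02, where 1354 genes were expressed. Those 43 were 30 members and 13 other genes. Of the remainder, 3 were on A02, 10 had C identifiers with no assigned chromosome, and each other chromosome or set had 0 to 2. In the other replicate numbers the same count was 2 for Si replicate 1, 1 for Si replicate 2, 5 for Si replicate 3, 2 for no-Si replicate 1 and 0 for no-Si replicate 3, with no member among them.

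A short second stretch of C02 was low as well. From BnaC02g45020D to BnaC02g45180D, between the 24th and the 30th expressed gene past the last member, 4 of the 7 expressed genes were more than 8-fold lower in both organs. BnaC02g45040D and BnaC02g45070D had no read in either organ of no-Si replicate 2. BnaC02g45100D had 0.443 CPM in no-Si replicate 2 and 7.24 to 15.6 CPM in the other 5 in roots. BnaC02g45150D, inside this stretch, kept its level, with 3.86 CPM in no-Si replicate 2 and 2.70 to 7.07 CPM in the other 5 in roots. Close to the end of the identifiers of C02, BnaC02g48820D, BnaC02g48850D and BnaC02g48920D were also more than 8-fold lower in both organs, while BnaC02g48870D between them had log2 ratios of -0.42 and -0.90. Far before the segment, BnaC02g16010D, BnaC02g16530D, BnaC02g16640D, BnaC02g22110D, BnaC02g22120D and BnaC02g24000D were more than 8-fold lower in both organs as well. They lay 456 to 648 expressed genes from its first member. On A02, BnaA02g33340D and BnaA02g33480D were low, 25 and 21 expressed genes before the chosen stretch. BnaA02g17800D, 532 expressed genes before it, was low too, with 1 read in each organ of no-Si replicate 2. BnaA02g33480D had 0.901 CPM in no-Si replicate 2, against 3.92, 14.5 and 13.9 CPM in the Si leaves and 13.1 and 13.2 CPM in the other no-Si leaves. In BnaA02g33340D and BnaA02g33480D, Si replicate 1 was the lowest of the other 5 leaves.

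The Si comparison of the members depended on no-Si replicate 2. With all libraries, the edgeR quasi-likelihood test called 0 of the 103 members tested in roots at a Benjamini-Hochberg adjusted p under 0.05, against 0% of all genes tested higher and 0.00235% lower. In leaves it called 0 of the 94 members tested, against 0% of all genes higher and 0.00731% lower. These p-values judge the difference between Si and no Si against the spread between the libraries of a group. At an unadjusted p under 0.05 there were 6 members in roots, against 8.86% of all genes tested, and 1 in leaves, against 4.09%. DESeq2 called 1 of the 103 members with an adjusted p in roots, BnaA02g34060D, against 1.04% of all genes. In leaves it called 0 of 103, against 0.101%. These counts do not set the members apart from the other genes.

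Although no member was called, the estimates of the C02 genes leaned 1 way. In roots 61 of the 70 C02 members tested had a log2 fold change above 0, with a median of 0.40. Without no-Si replicate 2, 27 of 73 did, with a median of -0.09. In leaves 54 of the 61 tested were above 0, with a median of 0.54, and without no-Si replicate 2 there were 36 of 64, with a median of 0.07. The A02 members had medians of -0.10 in roots and -0.11 in leaves with all libraries, and of 0.06 in both organs without no-Si replicate 2. The median over all genes tested was 0.00 in roots.

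The summed C02 level was 761 ± 184 CPM in Si roots and 584 ± 371 CPM in no-Si roots (SD, n = 3 each; two-sided exact permutation p = 0.6, the smallest this design allows being 0.1). Without no-Si replicate 2 the no-Si mean was 798 ± 37.4 CPM (SD, n = 2), so the difference of 177 CPM turned to -36.7 CPM. In leaves it was 968 ± 368 CPM with Si and 676 ± 473 CPM without (SD, n = 3 each; exact permutation p = 0.5), and the difference of 293 CPM fell to 20.0 CPM without no-Si replicate 2. The A02 sums were 1243 ± 112 CPM in Si roots and 1215 ± 189 CPM in no-Si roots (exact permutation p = 0.7), and 1531 ± 254 CPM in Si leaves and 1539 ± 332 CPM in no-Si leaves (SD, n = 3 each; exact permutation p = 1). Over the 4 sums, adjusted p-values of these exact permutation tests ran from 0.933 to 1. None of the differences exceeded the spread between replicates.

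The members with the smallest p for Si give the scale of what was not called. BnaA02g34060D had 266, 268 and 292 CPM in Si roots, against 224, 145 and 146 CPM in no-Si roots, and the groups did not overlap. Its log2 fold change by edgeR was 0.65 (SE 0.18, adjusted p = 0.351), and its DESeq2 adjusted p was 0.0450. BnaA02g34090D had a log2 fold change of -0.69 (SE 0.23) in roots, BnaC02g42490D of -0.30 (SE 0.10) and BnaC02g43450D of -0.37 (SE 0.13), with edgeR adjusted p-values of 0.425, 0.416 and 0.447. Both C02 genes among them are genes that kept their level in the roots of no-Si replicate 2. In leaves, the log2 fold changes were 1.44 (SE 0.73) for BnaC02g43750D, 0.54 (SE 0.29) for BnaC02g43700D, -0.38 (SE 0.13) for BnaA02g34470D and -0.55 (SE 0.24) for BnaA02g34030D, each with an edgeR adjusted p of 1.00.

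Roots and leaves were compared over all 12 libraries, a contrast that had no part in choosing the members. The edgeR test, with treatment as a covariate, called 62 of the 109 members tested, 28 higher and 34 lower in roots than in leaves, against 38.9% of all genes higher and 38.5% lower. Of the 36 A02 members tested, 13 were higher and 17 lower in roots. Of the 73 C02 members tested, 15 were higher (20.5%) and 17 lower (23.3%). The C02 count differed in other fits. Without its 2 libraries, 52 of 75 C02 members were called, 26 in each direction, and the A02 counts stayed at 13 and 17, against 75.9% of all genes in either direction. With all 12 libraries and treatment and replicate number as a block, 55 of the 73 C02 members were called, 28 higher and 27 lower, against 77.7% of all genes.

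Among the C02 members called, BnaC02g43450D was the one with the smallest p higher in roots, with 11.8, 14.3 and 15.6 CPM in Si roots, 17.8, 16.4 and 18.6 CPM in no-Si roots, and at most 0.173 CPM in a leaf. Its log2 fold change was 7.14 (SE 0.30, edgeR adjusted p = 1.84e-11). BnaC02g43620D and BnaC02g43600D were also higher in roots, by 4.58 (SE 0.23) and 6.11 (SE 0.49) on the log2 scale. Lower in roots, with the smallest p, were BnaC02g44060D, with a log2 fold change of -1.30 (SE 0.07), BnaC02g43410D with -6.65 (SE 0.42) and BnaC02g43350D with -3.76 (SE 0.38). In the organ where its level was higher, each of these 6 had between 21.0% and 106% of the pooled level of the other 5 libraries in no-Si replicate 2. BnaC02g44060D and BnaC02g43350D were expressed in roots too, to which this range does not refer.

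On A02, BnaA02g34060D, BnaA02g34440D and BnaA02g33980D were root genes, with log2 fold changes of 8.28 (SE 0.33), 7.63 (SE 0.28) and 4.81 (SE 0.13). BnaA02g34380D, BnaA02g34470D and BnaA02g34030D were leaf genes, with -10.05 (SE 0.40), -8.18 (SE 0.25) and -5.06 (SE 0.24). The edgeR adjusted p-values of these 6 were at most 8.94e-11. BnaA02g34380D ranged from 71.6 to 183 CPM over the 6 leaves, with a median of 111 CPM, and did not exceed 0.446 CPM in any root. BnaA02g34440D had 14.8 to 33.9 CPM in roots, with a median of 25.4 CPM, and at most 0.107 CPM in any leaf. The ranges of these organ-specific genes in the 2 organs did not overlap. Their names and functions are not in the files.

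Values of the members found in the RefSeq table and not yet described complete the account. BnaC02g42710D had log2 ratios of -2.35 in roots and -3.97 in leaves of no-Si replicate 2, and BnaC02g42940D had -3.96 and -4.96, so both C02 identifiers listed on A02 in that assembly were low here. BnaC02g43460D, expressed in roots only, had no read in roots of no-Si replicate 2, which makes it at least 12.4-fold lower. BnaC02g43970D was under 1 CPM in each library, so no ratio is given. BnaA02g34430D had 0.08 and -0.30.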

How the data were processed

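Poly(A)-selected, stranded, paired-end RNA-seq libraries were made with a TruSeq kit from 3 root and 3 mature leaf samples per treatment (per the labels' protocols). What the authors deposited is 1 file of raw gene counts per library, given for each strand and without regard to strand, and the file headers show that unmapped, multimapping, ambiguous and non-gene reads were kept out of the gene counts. Of aligners, the submitters' processing notes list TopHat2 and Bowtie2 with no version. Build, annotation and counter: not given in the sources used here.

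The reverse column was taken as the sense strand. Forward counts were 0.355% to 0.723% of both strands in each library. Log2 CPM used a prior count of 1, and a ratio is a library against the median of the other libraries of its organ. Genes with a mean of at least 1 CPM in both organs were called expressed. Folds of single genes compare a library with the pooled counts of the others, with exact 95% intervals. Tests used edgeR 4.0.16 (R 4.3.3: TMM, filterByExpr, robust quasi-likelihood, two-sided) on the whole table with Benjamini-Hochberg adjustment over all genes tested. Sums over members were compared by exact permutation tests (scipy 1.17.1). DESeq2 1.42.0, other scalings, priors and filters, a replicate block and the removal of each library were alternatives. The edgeR and DESeq2 steps were tested on simulated data. Replicates of a group differed by more than sampling noise (chi-square per degree of freedom of 5.55 to 40.6 over genes with at least 20 reads), so each counted as 1 sample.

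The members and lists were chosen with earlier results of these data known. The genes named were the 10 C02 and 8 A02 members of highest mean CPM outside no-Si replicate 2, the expressed genes nearest the edges (3 a side on C02, 2 on A02), the 5 C02 members with ratios nearest 0, those with the smallest p by organ (3 per chromosome and direction) and by Si (2 per chromosome and organ), and those in the RefSeq table. Genes of count 0 in both organs, the 11 highest A02 genes and low genes outside the segment were named after their values were seen. No sequence is printed.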

Additional observations from a re-analysis of the deposited data

How the results depend on the processing

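The count of members called for Si in roots was 0 by edgeR and 1 by DESeq2. With a prior count of 5 in place of 1, the median C02 log2 ratio of no-Si replicate 2 was -3.11 in roots and -2.85 in leaves, and 18 members were more than 8-fold lower in both organs in place of 30. Among the 17 C02 members with a mean of at least 5 CPM in both organs, the medians were -5.40 and -4.66 and the count was 9. Other scalings and either-strand counts kept these values within the spread between libraries.

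Leaving out 1 library at a time, the Si minus no-Si difference in summed C02 level ran from -36.7 to 297 CPM in roots and from 20.0 to 471 CPM in leaves. For A02 it ran from -40.3 to 136 CPM in roots and from -152 to 182 CPM in leaves. The A02 differences also changed sign when the median log2 CPM of the members was taken in place of the sum, to -0.082 in roots and 0.10 in leaves. The cause was not tested. The permutation p of each of these was at least 0.2. With 1 library left out, 0.2 is also the smallest p that the exact test can give. No conclusion is therefore drawn from those p-values.

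The replicate numbers were not taken as pairs, since not every pair of same-numbered libraries correlated by over 0.1 in deviations from the group means. Root and leaf libraries correlated by 0.13 to 0.16 with Si, and by 0.04, 0.34 and 0.15 without it. Si and no-Si libraries correlated by 0.05 to 0.19 in roots and by -0.08 to 0.23 in leaves. With a replicate block, 0 members were called for Si in roots and 0 in leaves, and 86 of 109 between roots and leaves, of which 55 were on C02, against 62 and 32 without it and 77.7% of all genes with it. In the comparison of organs, 9 of the 12 libraries correlated best with the library of their own number, a hint from the data and not from the design. The removal of both libraries of no-Si replicate 2 from the organ comparison was added after seeing the data, and gave 82 calls of 111 members tested. Depth limits genes of low level most: under about 3 reads in the other libraries, a count of 0 sets no useful bound.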
